A study of Mus musculus with 12 samples.

Results

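Etv1, Etv4 and Etv5, Phlda1 and Epha2 are 5 genes commonly read as transcriptional output of the ERK kinases. They were chosen by gene symbol, and all 5 symbols were found among the 19910 symbols of the deposited count table. All 5 also passed the filter on low counts and were tested in every comparison.

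The study sequenced RNA of bone marrow from female C57BL/6J mice aged 6 to 10 weeks, transduced with retrovirus packaged in 293T17 cells, a human embryonic kidney line. The 4 groups had 3 libraries each: empty vectors alone (empty), the SETBP1 vector with an empty vector (SETBP1), an empty vector with the NRAS vector (NRAS), and both mutants (SETBP1+NRAS). The labels give the mutations as SETBP1 D868N and NRAS G12D. The question in the title of the series is whether mutant SETBP1 enhances the MAPK signalling that mutant NRAS drives. All groups passed through the same transduction, so the controls carry vector too, and the library titles call the cells of all 4 groups leukemia cells, those with empty vectors included. The labels number the libraries and do not say that replicates came from separate mice or transductions, so p-values measure the spread between these libraries, which may be technical. In bulk RNA, fewer cells of a type and less RNA per cell cannot be told apart.

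NRAS is a small GTPase that, in its active form, recruits RAF kinases, and these activate MEK and then ERK. ERK relieves the repression exerted by Capicua, an HMG-box protein whose best known targets are the PEA3 factors Etv1, Etv4 and Etv5, a subgroup of the ETS transcription factors. The protein level of the PEA3 factors is also held down by the COP1 ubiquitin ligase. Phlda1 encodes a cytoplasmic protein with a pleckstrin homology-like domain that is induced by growth factors. Epha2 is a receptor tyrosine kinase for ephrin-A ligands and is induced through RAS and ERK in many cell types.

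On GRCm38, in GENCODE vM21, all 5 are protein-coding genes. Etv1 (ENSMUSG00000004151.17) lies at chr12:38779380-38870484 on the plus strand and Etv4 (ENSMUSG00000017724.14) at chr11:101769742-101785371 on the minus strand. Etv5 (ENSMUSG00000013089.15) lies at chr16:22381309-22439719 on the minus strand. Phlda1 (ENSMUSG00000020205.8) lies at chr10:111506286-111508645 on the plus strand and Epha2 (ENSMUSG00000006445.3) at chr4:141301240-141329384 on the plus strand. Phlda1 is overlapped by a long non-coding gene on the opposite strand, Gm28592, and the strand rule of the authors' counting is not given in the sources used here, so reads of the pair cannot be told apart. No annotated gene overlaps the other 4.

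The 250 bases before the annotated RefSeq start (GRCm38.p6) are shown for Epha2 and for Etv5. The Epha2 window matched an octamer bound by Capicua, and the Etv5 window matched only the 6-letter core of such octamers. The Epha2 window is chr4:141300971-141301220 on the plus strand. Its capitals mark a cAMP response element (TGACGTCA, 33 to 26 bases before the start) and a Capicua octamer (TGAATGAA, 15 to 8 bases before the start).
Epha2: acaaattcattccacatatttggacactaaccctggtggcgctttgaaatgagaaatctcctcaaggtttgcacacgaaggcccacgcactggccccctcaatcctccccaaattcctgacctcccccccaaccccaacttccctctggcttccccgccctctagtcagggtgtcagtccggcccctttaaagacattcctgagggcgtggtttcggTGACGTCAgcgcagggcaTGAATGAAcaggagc
The Etv5 window is chr16:22438369-22438618 on the minus strand, before the more downstream of its RefSeq starts. Its capitals mark the 6-letter core TGAATG, at 242 to 237 and at 198 to 193 bases before the start, and its reverse complement CATTCA at 129 to 124 bases.
Etv5: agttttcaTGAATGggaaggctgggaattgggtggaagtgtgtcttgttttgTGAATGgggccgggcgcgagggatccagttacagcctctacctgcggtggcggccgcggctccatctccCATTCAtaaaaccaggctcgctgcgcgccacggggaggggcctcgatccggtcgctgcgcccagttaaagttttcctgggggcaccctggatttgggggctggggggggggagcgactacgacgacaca
RefSeq windows were matched for 3 of the 5 genes, Epha2, Etv1 and Etv5, with 5 windows in all. Etv4 and Phlda1 had no entry. Each motif was searched on both strands in the same 250 bases of 32851 windows. The octamer TGAATGAA was found in 1.08% of them and the element TGACGTCA in 1.55%. The core TGAATG, which both Capicua octamers contain and which was searched after the windows had been read, was found in 10.9%. Windows with at least 3 matches to the core made up 0.131%, which is 43 windows, 3 being the number seen in the Etv5 window shown. The other octamer TGAATGGA (1.01% of windows), the AP-1 site TGANTCA (6.75%) and the ETS site CCGGAAGT (2.88%) matched no window of the 5 genes. The Etv1 windows and the more upstream Etv5 window (chr16:22439571-22439820) held none of the 6 motifs. A match describes letters and shows no binding.

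Total counts ran from 7085894 to 8864919 per library. The introduced genes followed the labels: Nras stood at 82.0 to 93.0 normalised CPM (counts scaled to library depth) in the 6 libraries without the NRAS vector and at 1423 to 1712 in the 6 with it. Setbp1 had 0 reads in every library without its vector and 5 to 17 in those with it. The library of SETBP1 replicate 3 stood apart: its median correlation with its own group was 0.949, and it held the fewest genes with a count, 11835. For SETBP1 replicates 1 and 2 that correlation was 0.965 and 0.968, and for the other 9 libraries 0.987 to 0.990. For the results that change most without that library, the value without it is also given. The labelled tissue was checked against 7 general haematopoietic markers, all of which were detected, with a summed level of 3039 to 3856 normalised CPM over all libraries. The sum hides opposite moves of single markers. Kit had 1579 reads summed over the empty libraries, 815 with SETBP1, 592 with NRAS and 295 with both mutants. Cd34 had 2386, 3087, 5084 and 6156 reads in the same order.

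**Figure D1:**
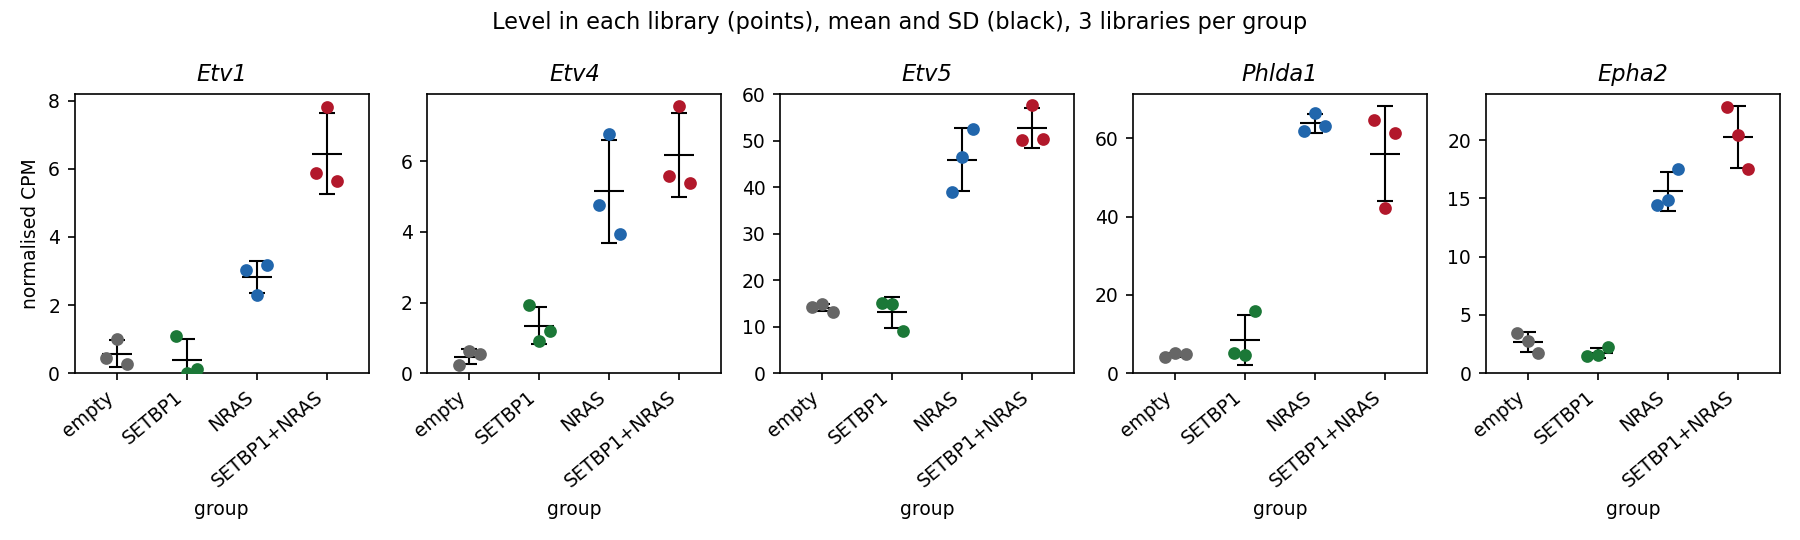
Level of each gene in normalised CPM (y axis, from 0, a different scale for each gene) in the 3 libraries of each group (points), with the group mean and SD in black. In all 5 genes every library with the NRAS vector lies above every library without it, and the SETBP1 replicate 3 library of Phlda1 (16.0) lies apart from the other SETBP1 libraries. How many of all genes lack overlap between groups was not counted.

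Among the PEA3 factors, Etv5 had the most reads. Its level was 14.3, 14.9 and 13.2 normalised CPM in the empty libraries, replicates 1 to 3 in this order here and below. With SETBP1 it was 15.2, 14.9 and 9.11. With NRAS it was 39.0, 46.4 and 52.5, and with both mutants 50.1, 57.7 and 50.5. The 6 libraries with the NRAS vector lay above the 6 without it, and among those with and among those without it the groups overlapped. Between 77 and 451 reads stood behind each of these values.

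Etv4 was near the floor of detection without NRAS. Its reads were 2, 5 and 4 in the empty libraries and 16, 7 and 10 in the SETBP1 libraries. With NRAS they were 36, 50 and 31, and with both mutants 40, 59 and 40. In normalised CPM these reads gave 0.465 ± 0.217 (SD, n = 3) with empty vectors and 1.34 ± 0.524 with SETBP1. With NRAS they gave 5.15 ± 1.46 and with both mutants 6.18 ± 1.20. All 3 SETBP1 libraries were above all 3 empty libraries, whereas the NRAS and the SETBP1+NRAS libraries overlapped.

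Etv1 had the fewest reads of the 5 genes over all libraries. It had 4, 8 and 2 reads with empty vectors, 9, 0 and 1 with SETBP1, 23, 17 and 25 with NRAS, and 42, 61 and 42 with both mutants. The corresponding levels were 0.443, 1.02 and 0.270 normalised CPM with empty vectors and 1.08, 0 and 0.118 with SETBP1. With NRAS they were 3.04, 2.30 and 3.17, and with both mutants 5.87, 7.81 and 5.65. Etv1 was the only 1 of the 5 genes in which every SETBP1+NRAS library was above every NRAS library. How many of all genes separated in this way was not counted, so this is a description. A count of 0, as in SETBP1 replicate 2, allows up to 3 reads at 95% confidence, and at such depths counting error alone is large.

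Phlda1, induced by growth factors, had low levels in 5 of the 6 libraries without NRAS. They were 4.20, 5.21 and 4.86 normalised CPM with empty vectors and 5.18, 4.57 and 16.0 with SETBP1. The value of 16.0 rests on 135 reads and belongs to SETBP1 replicate 3, the library that stood apart, where the other 2 SETBP1 libraries had 43 and 35 reads. With NRAS the levels were 61.8, 66.4 and 63.1, and with both mutants 64.6, 42.2 and 61.4. SETBP1+NRAS replicate 2 was the lowest of the 6 libraries with the NRAS vector, and it was still above every library without it.

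Epha2, the receptor, stood at 3.43, 2.79 and 1.75 normalised CPM with empty vectors and at 1.45, 1.57 and 2.25 with SETBP1. With NRAS it stood at 14.4, 14.9 and 17.5, and with both mutants at 22.8, 20.5 and 17.5. The lowest SETBP1+NRAS library and the highest NRAS library were level, at 17.4912 and 17.4928. Reads per library ran from 12 to 31 without NRAS and from 109 to 163 with it.

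Levels of different genes were compared per kilobase of merged exon. In the empty libraries the order of mean normalised CPM per kilobase was Etv5 (3.44), Phlda1 (2.16), Epha2 (0.569), Etv4 (0.150) and Etv1 (0.0433). With NRAS it was Phlda1 (28.9), Etv5 (11.2), Epha2 (3.34), Etv4 (1.66) and Etv1 (0.213). Phlda1 thus stood below Etv5 in the empty libraries and above it with NRAS, per kilobase, and it was also above Etv5 with both mutants (25.4 against 12.9). Dividing by the longest transcript in place of the merged exons gave the same order in all 4 groups. Within a gene, the order of the groups by mean level was not separated beyond the spread of the libraries for NRAS and SETBP1+NRAS in Etv4, Etv5, Phlda1 and Epha2, whose libraries overlapped.

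Mutant NRAS alone was compared with empty vectors to ask what NRAS changes by itself. All 5 genes were higher with NRAS, with no overlap between the groups, and all 5 passed an adjusted p of 0.05 in the edgeR quasi-likelihood test. How many of all genes lacked overlap was counted in no comparison, so lack of overlap is given as a description. Of all 10993 genes tested, 32.5% passed in either direction and 17% were called higher. With scaling to library size alone, 1379 of the 3644 genes called were higher, against 1868 of 3576 with the scaling used. Phlda1 changed most, by 3.75 on the log2 scale (SE 0.36, adjusted p 3.66e-06), a 13.4-fold ratio of mean levels. Etv4 changed by 3.45 (SE 0.45, adjusted p 4.68e-05), an 11.1-fold ratio. Epha2 changed by 2.53 (SE 0.24, adjusted p 3.28e-06), a 5.86-fold ratio.

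Etv1 rose by 2.27 (SE 0.65, adjusted p 0.0143) and Etv5 by 1.70 (SE 0.18, adjusted p 7.39e-06), the latter with the smallest change of the 5 and the most reads in the empty libraries. Ranked by log2 change among the 10993 genes, with rank 1 the largest rise, Phlda1 stood at 96, Etv4 at 106 and Epha2 at 164. Etv1 stood at 187 and Etv5 at 285. The 95% confidence interval of Etv1 ran from 0.88 to 3.66 and that of Etv5 from 1.32 to 2.08. The call of Etv1 depended on the control libraries: without empty replicate 1 its adjusted p was 0.0654 (log2 change 2.09), and without empty replicate 3 it was 0.0647 (1.96). Without empty replicate 2, the control library with 8 reads, the change was 2.91.

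**Figure D2:**
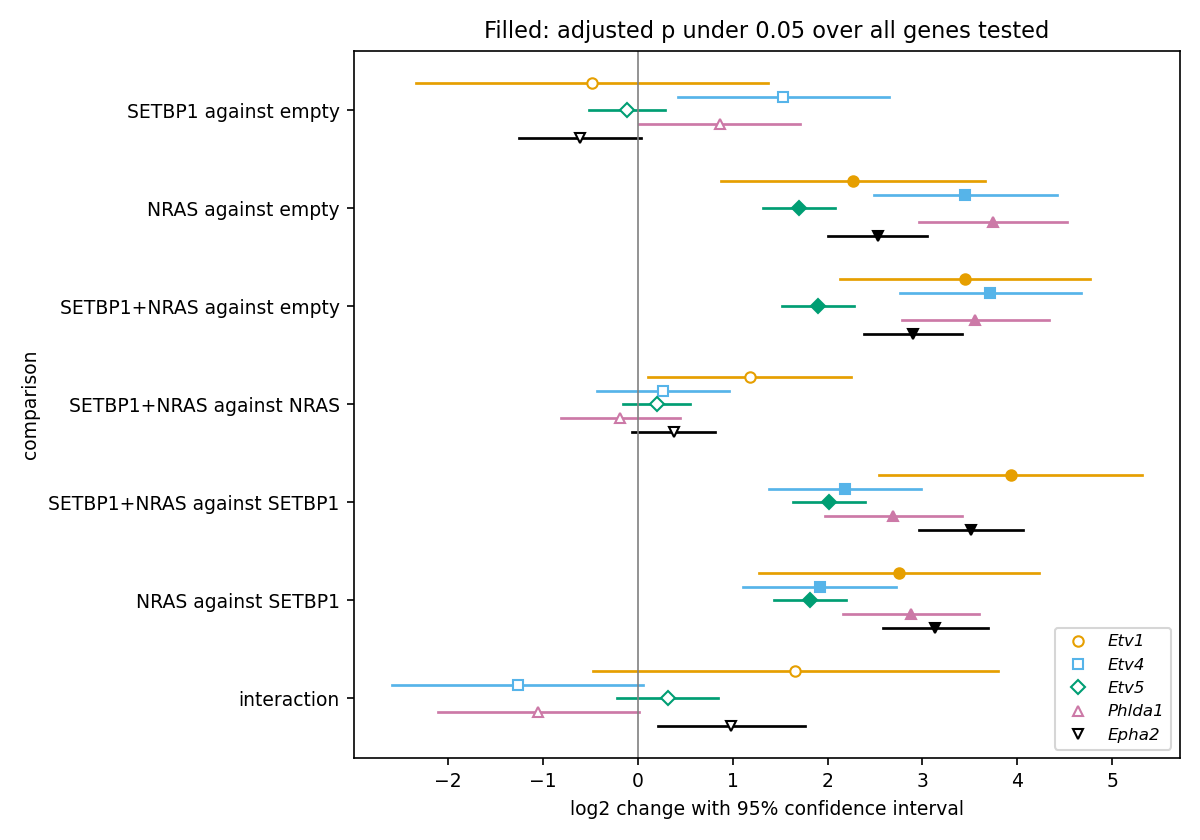
Log2 change of each gene (x axis) in each of 7 comparisons (y axis), with its 95% confidence interval from the edgeR fit; filled symbols passed an adjusted p of 0.05 over all genes tested. All symbols are filled in the 4 comparisons of a group with NRAS against a group without it, and none is filled for SETBP1 against empty, SETBP1+NRAS against NRAS or the interaction.

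**Figure D3:**
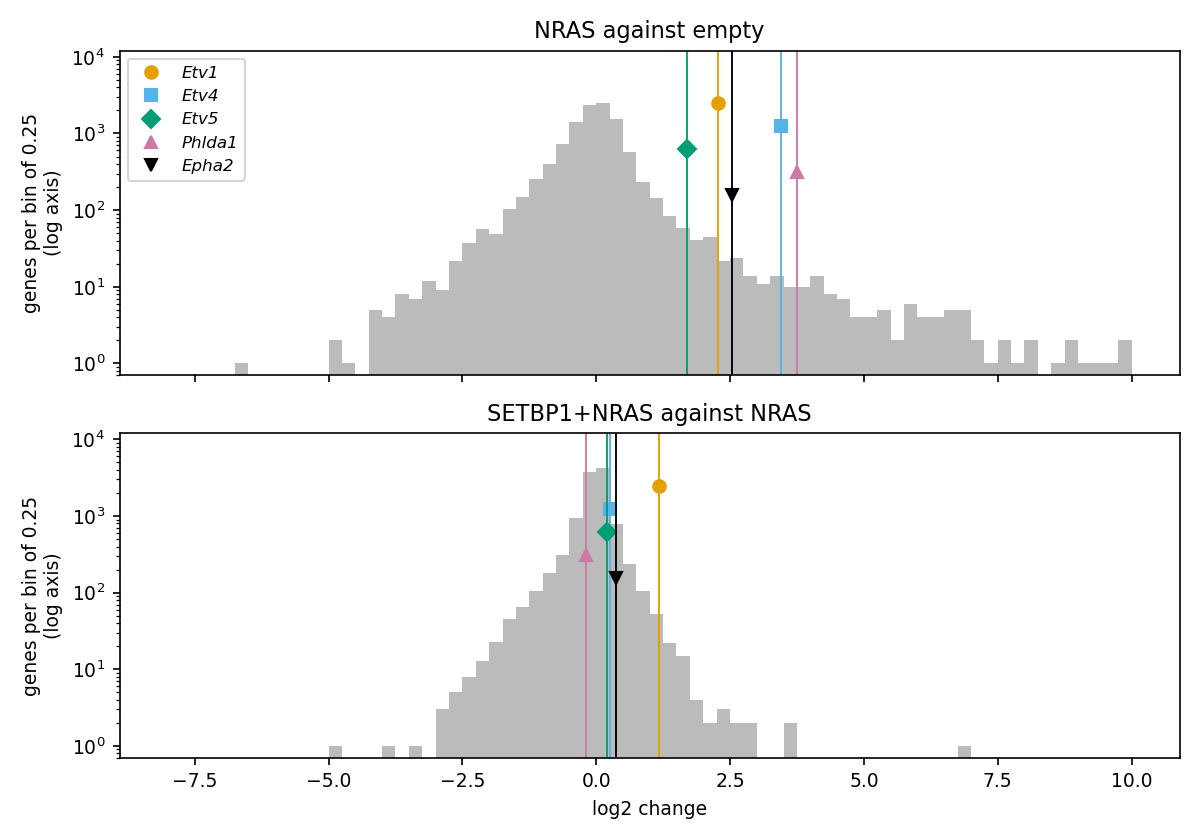
Number of genes (y axis, log scale) by log2 change (x axis, bins of 0.25) for NRAS against empty (top) and SETBP1+NRAS against NRAS (bottom), over 10993 genes; coloured lines mark the 5 genes, and the height of a symbol has no meaning. With NRAS the 5 genes lie in the right tail, from 1.70 to 3.75, and in the lower panel only Etv1 (1.18) lies away from the bulk of genes.

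Both mutants together were compared with empty vectors. All 5 genes rose again, without overlap, and all 5 passed the threshold, against 40.6% of all genes called in either direction and 20.8% called higher. With scaling to library size, 1656 of the 4564 genes called were higher, against 2282 of 4462 with the scaling used. The log2 changes were 3.45 for Etv1 (SE 0.61), 3.72 for Etv4 (SE 0.44), 1.90 for Etv5 (SE 0.18), 3.56 for Phlda1 (SE 0.36) and 2.91 for Epha2 (SE 0.24). The largest adjusted p of the 5 was that of Etv1, 0.000449. As ratios of mean level, Etv4 was 13.3-fold higher, Phlda1 11.8-fold, Etv1 11.2-fold, Epha2 7.62-fold and Etv5 3.74-fold. Without empty replicate 2 the change of Etv1 was 4.09. These comparisons share the empty libraries with those of NRAS alone.

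Whether mutant SETBP1 adds to NRAS was asked by comparing SETBP1+NRAS with NRAS. With edgeR 0 of the 5 genes passed the threshold, where 1.91% of all genes did. At an unadjusted p under 0.05 there was 1, Etv1, where 1283 of the 10993 genes were under it. DESeq2 and limma-voom called 0 of the 5, where of all genes they called 379 and 184. Etv1 had the largest difference, 1.18 higher with both mutants (SE 0.50, 95% confidence interval 0.11 to 2.25), a 2.27-fold ratio of mean levels and rank 67 of 10993. Its libraries did not overlap, its unadjusted p was 0.0322 and its adjusted p was 0.349 in the edgeR fit. Fitted on the 6 libraries of these 2 groups only, with 883 of 10555 genes called, the difference was again 1.18 and the adjusted p 0.00908. Without SETBP1 replicate 3 in the fit it was 1.18 too (SE 0.38, adjusted p 0.0649), and 836 of 11112 genes were called, against 210 of 10993 as reported. Over all 23 alternatives the Etv1 difference lay between 1.02 and 1.27, with adjusted p from 0.00908 to 0.719.

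For the other 4 genes the difference between SETBP1+NRAS and NRAS was small, and their libraries overlapped. Epha2 differed by 0.38 (SE 0.20, 95% confidence interval -0.06 to 0.81, adjusted p 0.548). Without SETBP1 replicate 3 in the fit, Epha2 differed by 0.38 as well (SE 0.17, adjusted p 0.208). Etv4 differed by 0.27 (interval -0.43 to 0.96) and Etv5 by 0.20 (interval -0.15 to 0.55). Phlda1 differed by -0.19 (interval -0.82 to 0.44). In this fit the intervals reach a rise of 1 log2 unit, a doubling, in none of the 4, though that of Etv4 comes close. With each library left out in turn, the Etv4 difference ran from 0.09 to 0.51, so its bound depends on the fit. A missed threshold does not show that levels were equal.

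Mutant SETBP1 alone was compared with empty vectors. With edgeR 0 of the 5 genes passed the threshold, against 14.9% of all genes. At an unadjusted p under 0.05 there were 2, Etv4 and Phlda1, where 3632 of the 10993 genes were under it. DESeq2 called 1 of the 5 and limma-voom 0, where of all genes they called 2222 and 1781. Etv4 came nearest, with a change of 1.53 (SE 0.52, 95% confidence interval 0.42 to 2.64, adjusted p 0.0558), a 2.88-fold ratio of mean levels and rank 98. Its 3 SETBP1 libraries, with 7 to 16 reads, were above its 3 empty libraries, with 2 to 5. With DESeq2 the change was 1.57 and the adjusted p 0.0446, so the call of Etv4 rests on the choice of test. The change was 1.63 without SETBP1 replicate 3 (adjusted p 0.0648). Leaving out SETBP1 replicate 2 also brought it past the threshold, at 1.75 (adjusted p 0.0462).

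Phlda1 differed by 0.86 between SETBP1 and empty (SE 0.40, 95% confidence interval 0.01 to 1.71, adjusted p 0.145). Without SETBP1 replicate 3 that difference was 0.05 (adjusted p 0.930), and without SETBP1 replicate 1 it was 1.14 (adjusted p 0.0435). Epha2 differed by -0.61 (SE 0.30, adjusted p 0.168), Etv1 by -0.48 (SE 0.86, adjusted p 0.711) and Etv5 by -0.12 (SE 0.19, adjusted p 0.687). Leaving out SETBP1 replicate 3 gave -0.84 for Epha2 (adjusted p 0.115) and -0.04 for Etv1 (adjusted p 0.986). The sign for Etv1 turned without empty replicate 2 (0.17) or SETBP1 replicate 2 (0.06), and without SETBP1 replicate 1, which left SETBP1 libraries of 0 and 1 reads, the value was -2.92 (adjusted p 0.0469). The sign for Etv5 turned without SETBP1 replicate 3 (0.09).

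Against SETBP1 alone, all 5 genes were called higher with both mutants, where 42.4% of all genes were called and 20.9% were called higher (1720 of 4608 with scaling to library size, against 2293 of 4661). Etv1 differed by 3.93 (SE 0.64), Epha2 by 3.51 (SE 0.25), Phlda1 by 2.69 (SE 0.33), Etv4 by 2.18 (SE 0.37) and Etv5 by 2.02 (SE 0.18). The largest adjusted p was 0.000374, that of Etv4. Without SETBP1 replicate 3 the difference of Phlda1 was 3.52. Without SETBP1 replicate 1 that of Etv1 was 6.36.

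NRAS alone against SETBP1 alone gave calls in all 5 genes as well, against 40.9% of all genes called and 20.8% called higher. Epha2 was 3.14 higher with NRAS (SE 0.26), Phlda1 2.88 (SE 0.33), Etv1 2.75 (SE 0.69), Etv4 1.92 (SE 0.38) and Etv5 1.82 (SE 0.18). The adjusted p of Etv1 was the largest, 0.00547. The difference of Phlda1 was 3.70 without SETBP1 replicate 3, and that of Etv1 was 5.18 without SETBP1 replicate 1. In the 4 comparisons of a group with NRAS against a group without it, no scaling tried turned the direction of any of the 5 genes.

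The interaction is the SETBP1 change in the presence of NRAS minus the SETBP1 change in its absence. With edgeR 0 of the 5 genes passed the threshold, and of all genes 0.0455% did (5 genes, with 1420 at an unadjusted p under 0.05, while DESeq2 called 93). Of the 5 genes, 1 had an unadjusted p under 0.05, and limma-voom and DESeq2 called 0, with no adjusted p from DESeq2 for Etv1, Etv4 and Epha2. Epha2 had the smallest p, with an interaction of 0.98 (SE 0.36, unadjusted p 0.0163, adjusted p 0.320). For Etv1 it was 1.66 (SE 0.99, adjusted p 0.482), and for Etv5 0.31 (SE 0.25, adjusted p 0.594). It was negative for Etv4, at -1.27 (SE 0.62, adjusted p 0.395), and for Phlda1, at -1.05 (SE 0.49, adjusted p 0.391). Without SETBP1 replicate 3 the interaction of Phlda1 was -0.23 (adjusted p 0.763) and that of Epha2 was 1.21 (adjusted p 0.138). In the same fit it was 1.22 for Etv1, -1.36 for Etv4 and 0.11 for Etv5, and 110 of 11112 genes passed. When each library was left out in turn, the interaction of Etv1 had its lowest value, 1.01, without empty replicate 2 and its highest, 4.10, without SETBP1 replicate 1, past the threshold in none of the 12 fits.

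**Figure D4:**
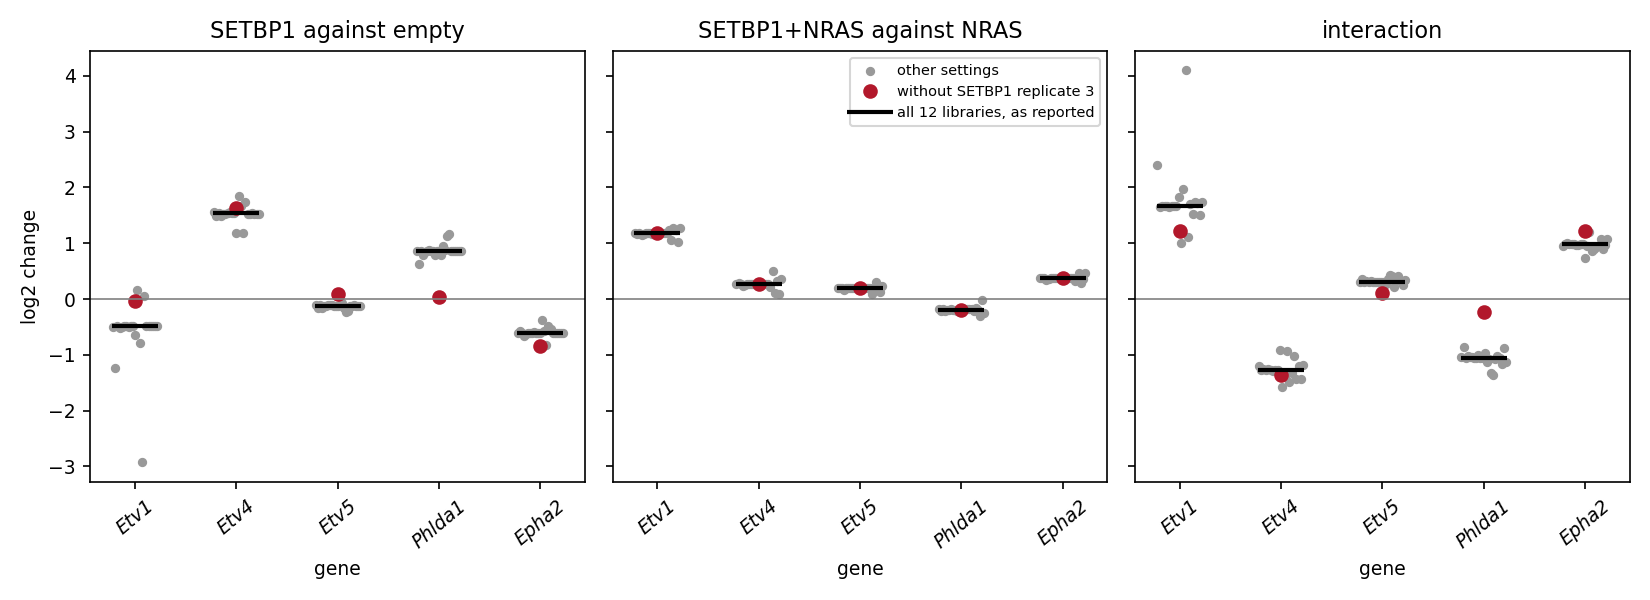
Log2 change of each gene (y axis) under every alternative setting (grey points), without SETBP1 replicate 3 (red) and as reported (black bar), in the 3 comparisons without a call. For SETBP1 against empty, Phlda1 falls from 0.86 to 0.05 without SETBP1 replicate 3, and Etv1 spreads from -2.92 to 0.17, while for SETBP1+NRAS against NRAS Etv1 stays between 1.02 and 1.27.

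The other ERK-output genes on a list of 19, of which 17 were tested, moved with NRAS as well. For NRAS against empty 14 rose and 0 fell, where 17% of all genes were called higher. The median log2 change was 2.20 against -0.01 over all genes, also with Areg at its lower bound. Hbegf, a ligand of the EGF receptor family, changed by 4.22 (SE 0.20, adjusted p 4.28e-09). Fosl1, an AP-1 subunit, changed by 3.96 (SE 0.19) and Egr1, an immediate-early transcription factor, by 3.94 (SE 0.26). Areg, also a ligand of the EGF receptor, had 0 reads in all 6 libraries without NRAS. It had 53, 40 and 61 reads with NRAS, at least 54.5-fold higher than with empty vectors against a floor of 3 counts over the group. The Phlda1 and Etv4 changes of 3.75 and 3.45 lay above the list's median and the Etv5 change of 1.70 below it.

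For SETBP1+NRAS against empty 14 of the 17 rose and 0 fell, with a median of 2.23, where 20.8% of all genes were called higher. For SETBP1+NRAS against NRAS 0 of the 17 passed the threshold, with a median of 0.17. At an unadjusted p under 0.05 there were 4, where 1283 of the 10993 genes were under it, and DESeq2 called 0 of the 17. Without SETBP1 replicate 3 in the fit, 3 passed in that comparison, where 836 of 11112 genes did: Ier3 and Kcnn4 higher and Egr1 lower. For SETBP1 against empty 3 of the 17 rose, namely Egr1 (1.16), Ier3 (0.86) and Kcnn4 (0.33), with a median of 0.10. Of all 10993 genes, 14.9% were called in either direction and 913 genes were called higher. In the fit without SETBP1 replicate 3 the 3 of the list that rose were Ccnd1, Egr1 and Ier3, where 846 of 11112 genes were called higher. Counts against SETBP1 were 13 higher and 1 lower for SETBP1+NRAS (Lif at -1.42 the lower) and 13 higher and 0 lower for NRAS. Of all genes, 20.9% and 20.8% were called higher in these comparisons. The counts for SETBP1+NRAS without SETBP1 replicate 3 were 13 higher and 0 lower, with Lif and Spred2 no longer called and Ier3 called. In that fit 2626 of 11112 genes were called higher. For the interaction 0 of the 17 passed, and 3 had an unadjusted p under 0.05, as did 1420 of the 10993 genes. DESeq2 called 1, Egr1, as did the fit without SETBP1 replicate 3. Of all genes, these 2 fits called 93 and 110.

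**Figure D5:**
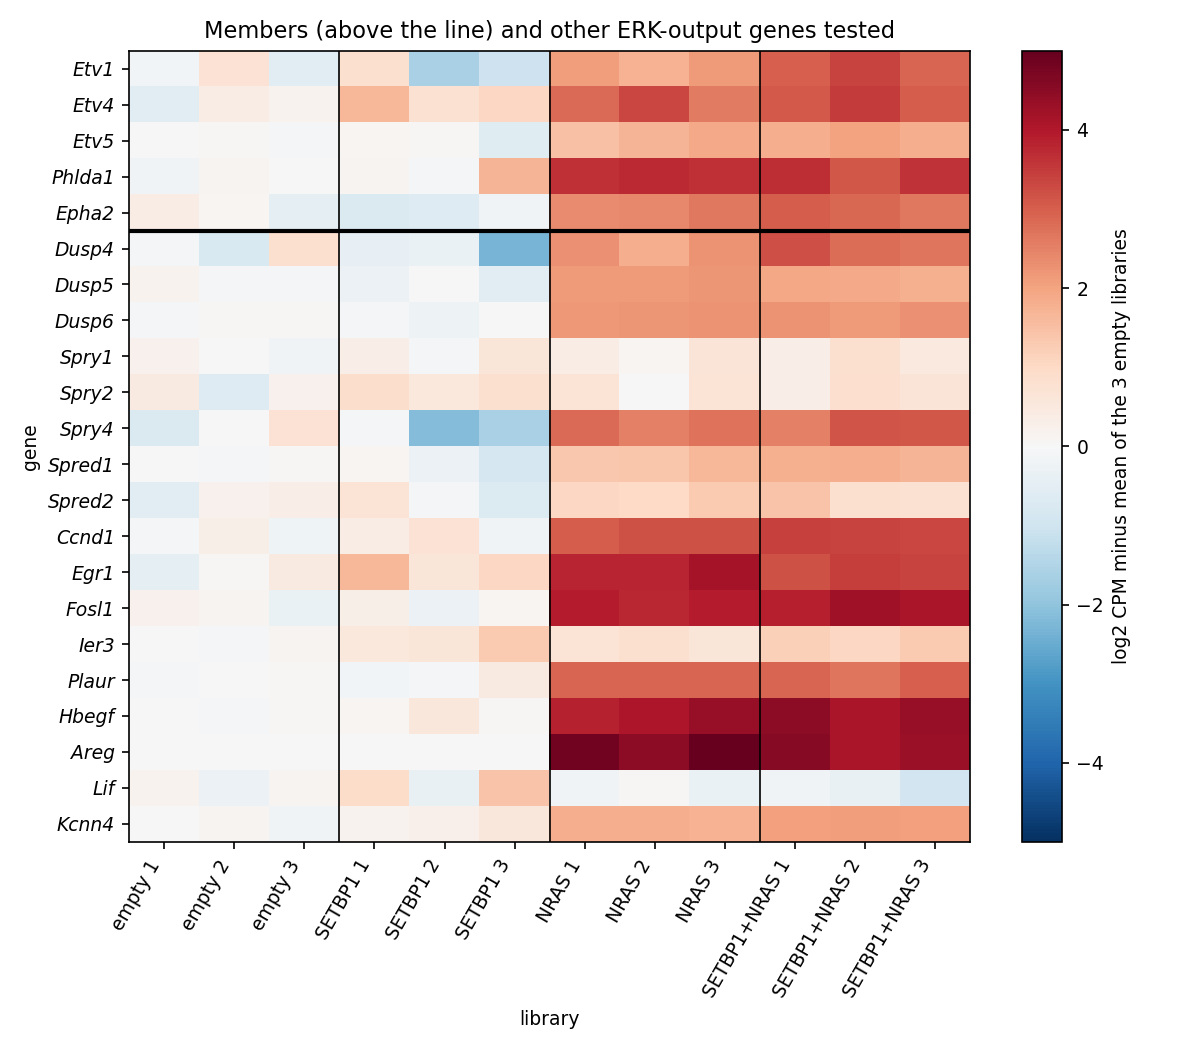
Log2 CPM of each gene (rows) in each of the 12 libraries (columns) minus its mean over the 3 empty libraries, with the 5 genes above the thick line and the 17 other tested ERK-output genes below it; red is higher and blue lower. The 6 columns with the NRAS vector are red for all 5 genes, and the SETBP1 replicate 3 column differs from the other SETBP1 columns most visibly in Phlda1 and Dusp4.

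Etv1, Etv4 and Etv5 belong to the ETS family of transcription factors. Of 23 other members listed, 15 were tested, and for NRAS against empty 4 rose and 2 fell, with a median of 0.04. This share of calls is near that of all genes, 32.5% in either direction and 17% higher. Ets2, itself an ERK substrate, rose by 2.58 (SE 0.14, adjusted p 1.35e-08), Elk3 by 1.27 (SE 0.14) and Elk1 by 0.77 (SE 0.23, adjusted p 0.0177). Ets1, prominent in lymphoid cells, fell by 1.05 (SE 0.22, adjusted p 0.00218). For SETBP1+NRAS against NRAS, Ets1 was the only 1 of the 15 to pass, at -1.52 (SE 0.24, adjusted p 0.00515), where 1.91% of all genes did. Without SETBP1 replicate 3 in the fit Ets1, Ets2 and Fli1 passed, 1 higher and 2 lower, where 836 of 11112 genes were called. Scaling to library size alone, which shifts the median of all genes to -0.10 for NRAS against empty, gave 3 higher and 3 lower. With that scaling 3644 of the 10993 genes were called, 1379 of them higher. For NRAS against empty without SETBP1 replicate 3 in the fit, 5 were higher and 4 lower. In that fit 5224 of 11112 genes were called, 2714 of them higher.

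Regulators of the PEA3 factors formed another list. Of 12 symbols listed for the Capicua complex and the COP1 ligase with its partners, 10 were in the table and tested, and for NRAS against empty 2 rose and 0 fell, near the 17% of all genes called higher. The 2 were Trib1, a pseudokinase adaptor of COP1, by 1.96 (SE 0.21, adjusted p 1.21e-05), and Dda1, a component of the ligase complex, by 0.27 (SE 0.09, adjusted p 0.0383). Without SETBP1 replicate 3 in the fit, 4 rose: these 2, Ddb1 and Trib2, where 2714 of 11112 genes were called higher. With scaling to library size, Trib1 alone passed, where 1379 of 10993 genes were called higher. Cic, which encodes Capicua, lay between 11.5 and 16.5 normalised CPM over all 12 libraries. Cop1 was found in the count table under neither symbol listed for it, Cop1 or Rfwd2. For SETBP1+NRAS against SETBP1 4 rose and 0 fell (Dda1, Ddb1, Trib1 and Trib2), where 20.9% of all genes were called higher. The fit lacking SETBP1 replicate 3 gave 2 calls up and 1 down, where of 11112 genes 2626 were called higher and 2540 lower. For SETBP1+NRAS against NRAS 0 of the 10 passed with edgeR or DESeq2, and 0 had an unadjusted p under 0.05.

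The relatives of Phlda1 and Epha2 were few. Phlda2 and Phlda3 were tested, and neither passed in any comparison. Of 13 other Eph receptors 2 were tested, and the only call was Epha7, at -0.89 for NRAS against SETBP1. Of 8 ephrins only Efnb1 was tested, and it was called for NRAS against SETBP1, at 1.60 (1.16 without SETBP1 replicate 3). With DESeq2 it was also called lower for SETBP1 against empty (-1.20), and without SETBP1 replicate 3 it was called lower for SETBP1+NRAS against NRAS (-1.11). No ephrin-A ligand, the class that binds Epha2, passed the filter on low counts.

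The genes whose log2 CPM followed each of the 5 most closely over the 12 libraries, among 9471 with at least 50 counts on average in their highest group, are given as a description, since the libraries share their groups. For Etv1 these were Snx4 (Pearson's r 0.956), Nabp1 (0.955) and Zcchc24 (0.955). For Etv4 they were Bop1 (0.978), Gar1 (0.975) and Akr1b8 (0.971). For Etv5 they were Dock4 (0.991), Gramd1b (0.991) and Slc39a14 (0.990). For Phlda1 they were Eif2s1 (0.990), Cd200r1 (0.989) and Plk3 (0.987), and for Epha2 Mgl2 (0.988), Myo1e (0.988) and Rap1b (0.986). Among the 5 genes themselves, r ran from 0.806 for Etv1 with Phlda1 to 0.956 for Etv5 with Epha2.

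Markers of blood cell types differed between the groups as well, those of neutrophils, mast cells and basophils also with SETBP1 alone. The summed level of 6 neutrophil markers was 7886 to 8909 normalised CPM with empty vectors and 3283 to 4220 with NRAS. It was 3531 to 5251 with SETBP1 and 1076 to 1345 with both mutants. The 7 mast cell and basophil markers summed to 1020 to 1059 with empty vectors, 558 to 685 with SETBP1, 216 to 385 with NRAS and 97.3 to 159 with both. For NRAS against empty 4 of 6 neutrophil and 6 of 6 mast cell and basophil markers tested fell, and for SETBP1 against empty 5 and 4. Of all 10993 genes, 1708 and 720 were called lower in these 2 comparisons. For NRAS against empty the neutrophil granule gene Camp fell by 2.27 and the IgE receptor subunit Fcer1a by 3.36 on the log2 scale. Retnlg and S100a8 were not called, with 669 and 53718 reads summed over the empty libraries and 640 and 46349 with NRAS. The 7 monocyte and macrophage markers summed to 4153 to 4550 with empty vectors, 4505 to 5597 with SETBP1, 3593 to 3938 with NRAS and 3301 to 3705 with both. Most of that sum was Ly6c2, and for NRAS against empty 1 of the 7 rose (Mrc1, by 0.82) and 3 fell. Of the 7 general haematopoietic markers 3 rose in that comparison, among them Cd34 by 1.17, and 1 fell, Kit by 1.34. Of all genes, 17% were called higher there. The part of these shifts in the changes of the 5 genes was not tested.

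Epha2 is best known from epithelial and endothelial cells, so markers of both were examined. Of 5 epithelial markers, Krt19 was at 0 in every library, Krt8 had at most 3 reads summed over a group and Epcam at most 10. Krt18 had 134 reads summed over the empty libraries, 122 with SETBP1, 111 with NRAS and 64 with both mutants. Of the 2 epithelial markers tested, 1 was called higher for NRAS against empty, Cdh1, where 17% of all genes were called higher. The epithelial sum of 66.2 to 94.8 normalised CPM with NRAS, against 50.4 to 51.7 with empty vectors, was mostly Cdh1. Of 6 endothelial markers, Cldn5 was at 0 in every library and Cdh5 had at most 5 reads summed over a group. Tek had 25 reads summed over the empty libraries, 3 with SETBP1, 9 with NRAS and 1 with both mutants. Emcn had 2, 8, 3 and 1 reads in the same order. The 2 endothelial markers tested, Kdr and Pecam1, were both called higher for NRAS against empty, where 17% of all genes were. Kdr, a receptor of vascular endothelial growth factor, had 5 reads summed over the empty libraries, 9 with SETBP1, 52 with NRAS and 115 with both mutants. Pecam1, which blood cells also carry, made up most of the endothelial sum of 176 to 281 with NRAS and 100 to 116 with empty vectors. Of 7 stromal markers, Col3a1, Dcn, Lum and Pdgfra were at 0 in every library. Col1a1 had 6 reads summed over the empty libraries, 13 with SETBP1, 0 with NRAS and 0 with both mutants. Col1a2 had 16, 12, 17 and 8 reads in the same order. The stromal marker tested, Pdgfrb, was called higher for NRAS against empty (log2 change 1.96), again where 17% of all genes were. Pdgfrb had 38 reads summed over the empty libraries, 25 with SETBP1, 141 with NRAS and 91 with both mutants. The part of Kdr, Pecam1, Cdh1 and Pdgfrb in the changes of the 5 genes was not tested.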

How the data were processed

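Counts per gene symbol, whole numbers with no normalisation, were deposited by the authors for the 12 libraries in 1 table. Per the labels' protocols, RNA came from a Qiagen micro kit and libraries from a SMART-Seq chemistry. Per the submitters' processing notes, STAR, DESeq2 and mm10 were used, with no role or version. The counting tool, annotation, strand rule and any filter are not given in the sources used here.

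From these counts, edgeR 4.0.16 in R 4.3.3 fitted a quasi-likelihood model with 4 group means to all 12 libraries. Scaling was by TMM, and filterByExpr (minimum count 10, minimum total 15) kept 10993 genes. P-values were two-sided and Benjamini-Hochberg adjusted over every gene tested per comparison, and calls were made under 0.05. Standard errors came from the F statistic. Normalised CPM used TMM factors, and log2 CPM a prior count of 2. Replicate pairs all differed beyond sampling noise (chi-square per degree of freedom 2.69 to 39.2). Steps were tested on simulated data.

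The 5 genes, the other lists and the rule for named genes were chosen with earlier results of these data known. For each list, genes named were up to 4 past the threshold for NRAS against empty with the largest change and at least 50 counts on average in the highest group, up to 2 for SETBP1+NRAS against NRAS or the interaction, and the 3 closest followers of each of the 5 genes. Genes named outside that rule (such as Ier3, Kcnn4, Lif, Epha7, Efnb1, Ddb1, Trib2 and Cic) were chosen after their values were seen. Coordinates and lengths came from GENCODE vM21, and promoter windows from RefSeq. Alternatives were DESeq2 1.42.0, limma-voom (limma 3.58.1), other scalings, filters and thresholds, only the groups compared, a replicate block, a robust fit, and leaving out each library.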

Additional observations from a re-analysis of the deposited data

How the results depend on the processing

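The 5 genes gave 816 values under alternatives. Of these, 805 kept their direction and their side of the threshold, 3 lost the call, 5 gained one and 3 changed direction. For SETBP1 against empty, 0 genes passed as reported, 1 with DESeq2 (Etv4), and 0 to 2 when each library was left out in turn. In that comparison the Etv1 change ran from -2.92 to 0.17 and the Etv5 change from -0.237 to 0.0896 over the libraries left out, and the cause was not tested. A mean count of at least 50 left Etv1 and Etv4 untested, so that 3 genes passed in place of 5 for NRAS against empty, SETBP1+NRAS against empty, SETBP1+NRAS against SETBP1 and NRAS against SETBP1. Fitting only the groups compared gave 1 call for SETBP1+NRAS against NRAS (Etv1) in place of 0, and its filter left Etv1 and Etv4 untested for SETBP1 against empty. Etv1 lost its call for NRAS against empty at an adjusted p threshold of 0.01 too. Over the alternatives at the same threshold, the number of all genes called ran from 110 to 3191 for SETBP1 against empty (1633 as reported), 2681 to 5261 for NRAS against empty (3576), 3658 to 6059 for SETBP1+NRAS against empty (4462), 93 to 883 for SETBP1+NRAS against NRAS (210), 3083 to 5166 for SETBP1+NRAS against SETBP1 (4661), 2848 to 5116 for NRAS against SETBP1 (4495) and 1 to 110 for the interaction (5).

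With a replicate block, 5 genes passed for NRAS against empty and Etv1 changed by 2.30, and for SETBP1+NRAS against NRAS 0 passed and Etv1 differed by 1.17 (adjusted p 0.453). Same-numbered libraries did not deviate together: r ran from -0.127 to 0.124 over 18 pairs, 1 of them over 0.1. The block changed no call of the 5 genes. Depth limits Etv1 and Etv4 most, with 0 to 16 reads in each library without NRAS.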

Other observations

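Reads summed over the 3 libraries of a group show the depth behind the comparison of SETBP1+NRAS with NRAS. The reads of Etv1 summed to 65 with NRAS and 145 with both mutants, those of Etv4 to 117 and 139. The Etv5 sums were 1052 and 1184, those of Epha2 357 and 453, and those of Phlda1 1457 and 1248. These are values of the same libraries, and the difference between genes was not tested.

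SETBP1 replicate 3 had the highest Phlda1 level of the 6 libraries without NRAS (16.0 normalised CPM) and the lowest Etv5 level (9.11). Its Efnb1 level was 0.473, against 2.17 and 2.22 in the other SETBP1 libraries.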
